A study of Mus musculus with 12 samples.

Results

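The dual-specificity MAP kinase phosphatases are 10 genes, Dusp1, Dusp2, Dusp4, Dusp5, Dusp6, Dusp7, Dusp8, Dusp9, Dusp10 and Dusp16. They were found by gene symbol among the 48623 Ensembl mouse genes of a transcript abundance table, and each had 1 identifier. The rule would have used mean abundance only to choose between duplicate identifiers, which was not needed. The family was taken up with earlier results of these data known, and Dusp4 was singled out by the study on the same libraries, so the p-values below describe these libraries and are not independent evidence. The libraries came from primary microglia of newborn C57BL/6J mice, either wild type (WT) or carrying the Trem2 R47H knock-in (KI), a point mutation in the gene of a microglial surface receptor. The study describes the KI animals as homozygous and the WT animals as their littermates. Microglia were separated by mild trypsin from mixed glial cultures of 19 to 23 days, then left untreated or given interleukin-4 (IL-4), a cytokine of alternative activation, at 20 ng/ml for 48 h. There were 3 WT cultures (T13, T33 and T43) and 3 KI cultures (T15, T22 and T32), and each gave 1 untreated and 1 IL-4 library, 12 in all. The study traces low Trem2 transcript in this mouse line to a splicing effect of the allele, so KI carries both the amino acid change and less Trem2.

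MAP kinases (ERK, JNK and p38) are switched on by phosphorylation of a threonine and a tyrosine in their activation loop. These phosphatases remove both phosphates and so end the signal. The nuclear members, Dusp1, Dusp2, Dusp4 and Dusp5, are mostly encoded by genes that MAP kinase signalling itself induces. Dusp6, Dusp7 and Dusp9 are cytoplasmic and prefer ERK, whereas Dusp8, Dusp10 and Dusp16 act mainly on JNK and p38. In macrophages and microglia some of them are known as brakes on inflammatory signalling.

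Values are TPM, a relative abundance that is normalised for transcript length and library total, so levels can be compared between genes. Read depth cannot be recovered from TPM. Between 20750 and 23945 genes were above 0 in a library. Genes with a mean log2(TPM + 1) above 1.5 were tested with limma (11204 genes), and 6 members, Dusp1, Dusp4, Dusp5, Dusp6, Dusp7 and Dusp10, passed this filter. Dusp2, Dusp8, Dusp9 and Dusp16 were too low and are described by their values. Fitted differences are on the log2(TPM + 1) scale, which understates the change of low genes, and p-values were adjusted by the Benjamini-Hochberg method across the tested genes. Unless another test or group is named, genotype and IL-4 differences are averaged over the other factor. The adjusted p beside them is from an F-test that also takes in the interaction, so it does not test the average alone. Trem2 lay between 1190 and 1886 TPM in WT and between 325 and 770 TPM in KI libraries, and fell by 1.43 (log2, SE 0.19, limma adjusted p = 0.00763). Retnla, a marker of alternative activation, rose with IL-4 by 9.21 (log2, SE 0.63, limma adjusted p = 8.7e-06), as did Chil3, Mrc1 and Socs1.

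Marker RNA of several cell types differed between the genotypes. All 18 microglial markers passed the filter, and 5 of them fell in KI, namely Aif1, Csf1r, Itgam, C1qb and Fcrls. Summed microglial markers were 33944 to 35107 TPM in untreated WT, 39624 to 47432 TPM in WT after IL-4, 14783 to 30149 TPM in untreated KI and 25368 to 34765 TPM in KI after IL-4. Mural and fibroblast markers summed to 152 to 351 TPM in untreated WT and 1141 to 1446 TPM in untreated KI, and to 248 to 657 TPM and 741 to 1299 TPM after IL-4, with Acta2, Tagln and Cnn1 higher in KI among 6 tested of 11. Astrocyte markers summed to 174 to 737 TPM in untreated WT and 230 to 5009 TPM in untreated KI, and to 188 to 661 TPM and 643 to 3906 TPM after IL-4, with the highest sums in T15 and 0 of 10 tested past the threshold. T13 was the WT culture with the most astrocyte marker RNA (737 and 661 TPM). The sample titles of T13 and T15 have another form than the rest, and what that form marks is not stated in the labels. In the 4 other cultures the IL-4 difference of Dusp4 was 2.03 (limma adjusted p = 0.194) and the genotype differences of Dusp1 and Dusp10 were 1.29 and 1.30 (limma adjusted p = 0.0717 and 0.597). Gjb6 of the astrocyte list was listed at 0 in untreated WT and in both KI groups. Of the other lists, Olig1 rose in KI among 7 tested oligodendrocyte lineage markers, and 0 of 3 neuronal and 0 of 1 endothelial markers passed. These genotype calls are from the fit without a culture block, in which the untreated and IL-4 library of a culture count separately. Over all tested genes, genotype calls went from 185 to 77 with a random replicate block and to 3 without T33. In these bulk libraries, fewer cells of a type and less RNA per cell cannot be told apart.

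Dusp6, Dusp1 and Dusp7 made up most of the family message. Together they held between 80.1% and 95.3% of the TPM summed over the 10 members, which ranged from 134 to 316 TPM. In untreated WT microglia the order of mean level was Dusp6, Dusp1, Dusp7, Dusp2, Dusp5, Dusp4, Dusp10, Dusp16, Dusp9 and Dusp8. Only the steps from Dusp6 to Dusp1 and from Dusp7 to Dusp2 separated neighbours without overlapping ranges. After IL-4 in WT, Dusp4 moved up to the place after Dusp1, without overlap with Dusp1 above it or Dusp5 below it. In KI the order began with Dusp6, Dusp1 and Dusp7 when untreated and with Dusp1, Dusp6 and Dusp7 after IL-4, and Dusp10 came next in both. The ranges of Dusp6 and Dusp1 overlapped in both KI groups, as did those of Dusp10 and Dusp4.

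**Figure D1:**
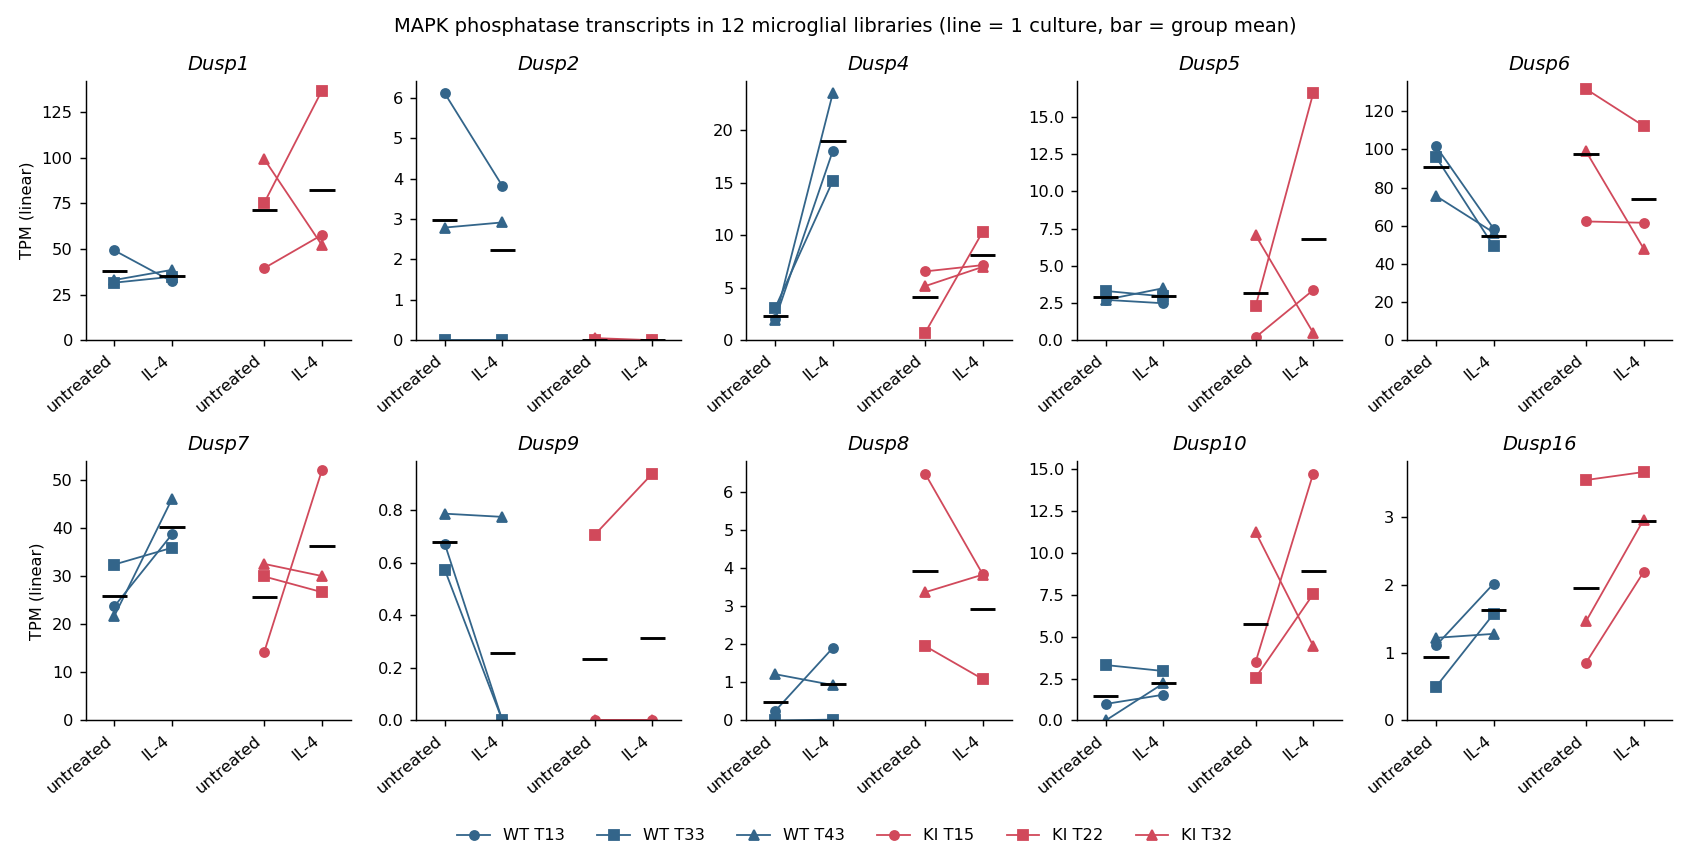
TPM of each of the 10 phosphatases (y axis, linear, a separate scale in each panel) in untreated and IL-4 libraries of 3 WT (blue) and 3 KI (red) cultures, with a line for each culture and a black bar at each group mean. Dusp4 climbs steeply in the WT cultures and in T22, Dusp6 slopes down in every culture, and Dusp2 is near 0 in all KI libraries.

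In WT the family shares of Dusp6, Dusp4 and Dusp7 differed between untreated and IL-4 libraries without overlapping ranges. In KI this held for Dusp6 alone of these. Dusp6 held 54.6% ± 1.42 (SD, n = 3) of the family TPM in untreated WT and 34.4% ± 2.34 after IL-4. Dusp4 went from 1.42% ± 0.37 to 11.8% ± 1.41, and Dusp7 from 15.7% ± 3.21 to 25.2% ± 0.91. The Dusp1 share was 22.7% ± 3.88 and 22.2% ± 2.10. In KI cultures the Dusp6 share was 45.9% ± 7.40 untreated and 32.7% ± 2.61 after IL-4, while the Dusp4 share was 2.39% ± 2.34 and 3.83% ± 0.76. The KI ranges of the Dusp4 share overlapped (0.28% to 4.90% untreated, 3.27% to 4.69% after IL-4), and in T15 this share fell. The Dusp7 share in KI went from 11.8% ± 0.98 to 18.1% ± 8.80, with ranges that overlapped. The Dusp1 share was 32.7% ± 4.84 and 35.6% ± 7.42 in KI, and each KI library lay above every WT library. Shares of one total depend on each other and were not tested.

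**Figure D2:**
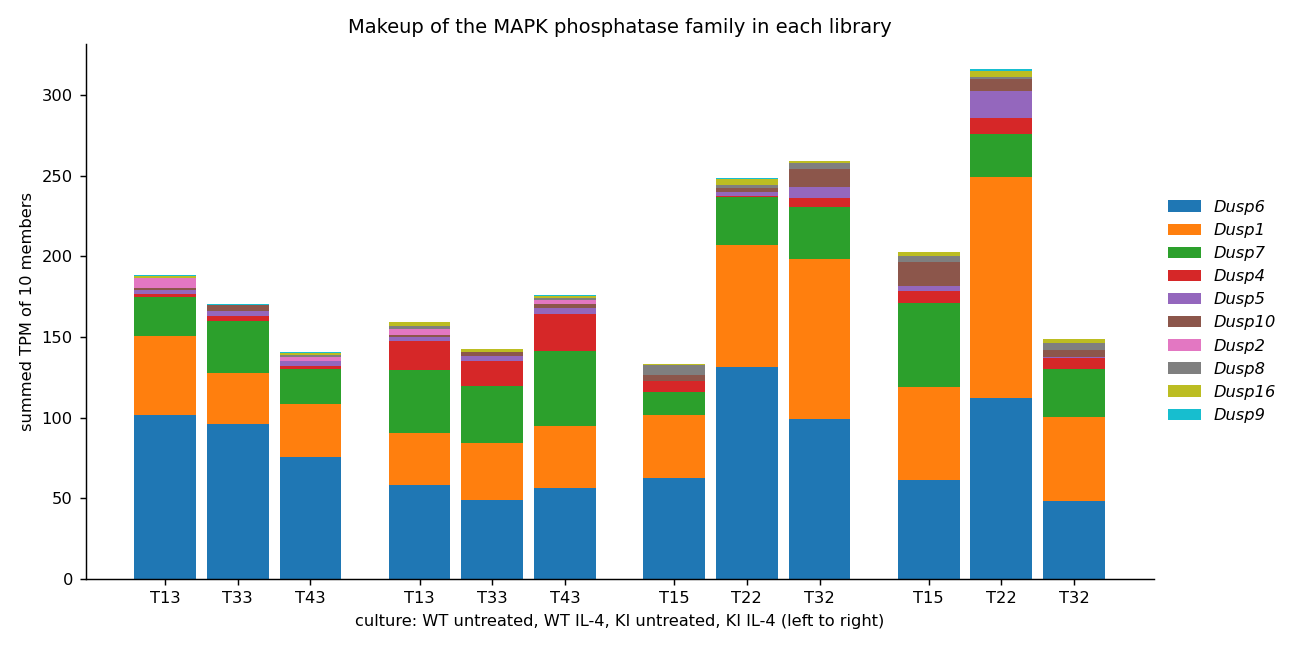
Stacked TPM of the 10 members (y axis, linear) in each library, grouped from left to right as untreated WT, IL-4 WT, untreated KI and IL-4 KI, with the culture named under each bar. The Dusp4 segment is widest in the 3 WT IL-4 bars, and the T22 IL-4 bar is the tallest at 316 TPM.

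No member passed the threshold in the test of genotype, of IL-4 or of their interaction. Over all 11204 genes, 1.65% passed the genotype test, 0.893% the IL-4 test and 0% the interaction test, so 0 of 6 members is close to that background in each. For the interaction, 357 genes had an unadjusted p under 0.05.

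Among the nuclear members, Dusp4, which can act on ERK, JNK and p38, showed the largest IL-4 difference. The gene (ENSMUSG00000031530) lies on the plus strand at chr8:34807297-34819894 (GRCm38). In the untreated WT cultures T13, T33 and T43 it stood at 2.00, 3.08 and 1.97 TPM, and after IL-4 at 18.0, 15.2 and 23.5 TPM. In the KI cultures T15, T22 and T32 it stood at 6.55, 0.71 and 5.15 TPM untreated and at 7.15, 10.3 and 6.98 TPM after IL-4. The IL-4 libraries lay above the untreated ones in both genotypes without overlap, and after IL-4 every KI library lay below every WT library. The same was true of 10.8% of tested genes for IL-4 above untreated in WT, 5.47% for IL-4 above untreated in KI and 5.79% for KI below WT after IL-4. The ratio of mean TPM, IL-4 over untreated, was 8.05 in WT and 1.97 in KI.

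The fitted IL-4 difference of Dusp4 over both genotypes was 1.82 (SE 0.37), just short of the threshold in the F-test (limma adjusted p = 0.0563). With the culture as a random replicate block it passed (adjusted p = 0.0233, limma), and with the culture as a fixed block it did not (adjusted p = 0.0591, limma). Leaving out T15 or T22 also brought the F-test past (adjusted p = 0.0320 and 0.0232, limma), and the range over all 6 omissions was 0.0232 to 0.600. The F-test takes the IL-4 difference and the interaction together. Without T22 the averaged difference was 1.40, the lowest of the 6 omissions. A test of the averaged difference alone passed (adjusted p = 0.0256, limma). Higher calls made up 1.2% of tested genes with the random block and 1.14% in the averaged test. Within WT the difference was 2.57 (SE 0.53, limma adjusted p = 0.0487, with 0.5% of genes called higher), and within KI it was 1.07 (SE 0.53, limma adjusted p = 0.699, with 0.357% called higher). The difference between these, -1.49 (SE 0.75), did not pass (limma unadjusted p = 0.0663, adjusted p = 1.00), so the IL-4 difference is not shown to differ between genotypes. Leaving out 1 culture at a time it ranged from -2.32 to -1.01. The largest gap was without T22, where the KI difference went from 1.07 to 0.24.

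Culture by culture, Dusp4 was higher with IL-4 in 6 of 6. The within-culture log2 differences were 2.67, 1.99 and 3.05 in T13, T33 and T43. They were 0.11, 2.73 and 0.38 in T15, T22 and T32, so T22 lay within the WT range and the other KI cultures were nearly level. T22 was the KI culture with the lowest untreated level. An exact sign-flip permutation test over the 6 cultures gave p = 0.03125 (2-sided, unadjusted), the smallest it can give. Under median-ratio scaling Dusp4 was higher in 5 of 6 cultures and the exact permutation p was 0.0625. Of all tested genes as deposited, 5.73% were higher in all 6 cultures.

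**Figure D3:**
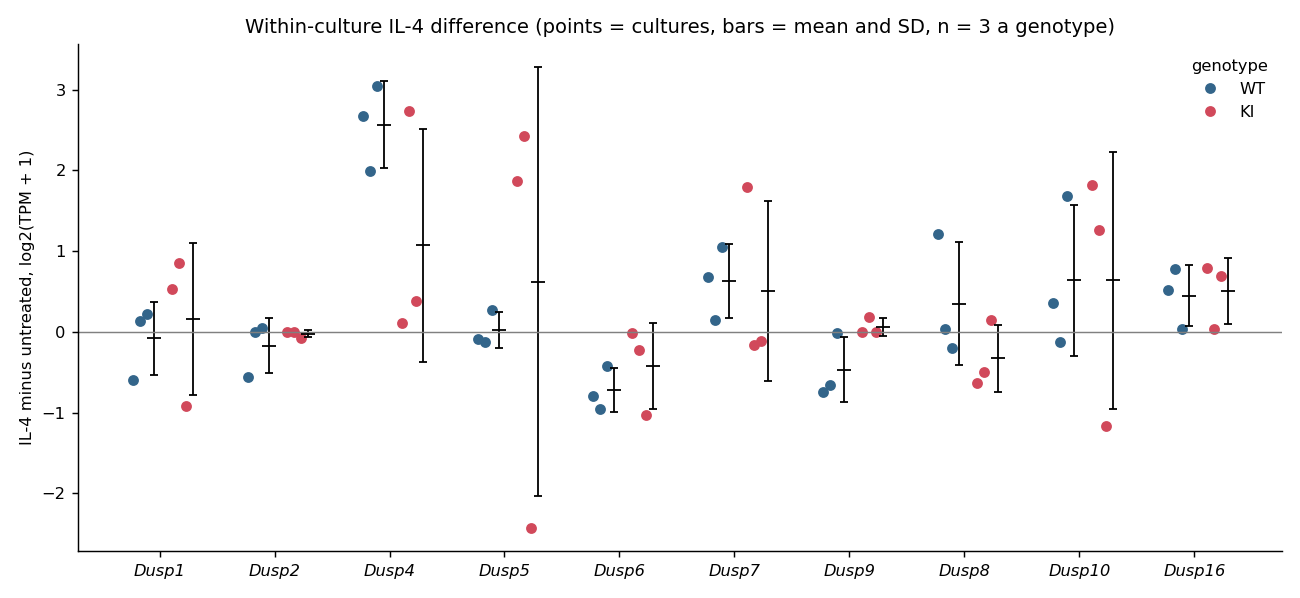
Within-culture difference, IL-4 minus untreated, in log2(TPM + 1) (y axis) for each member, with 1 point per culture (WT blue, KI red) and the mean and SD of 3 cultures in black. As deposited, Dusp4 lies above 0 (5 of 6 under median-ratio scaling) and Dusp6 below 0 in all 6 cultures, and the 3 KI points of Dusp5 spread from -2.43 to 2.43.

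Among the genes whose pattern over the 12 libraries was most like that of Dusp4 were Ap1b1 (Pearson r = 0.96), which encodes a subunit of a clathrin adaptor, and Mxd4 (r = 0.93), a partner of MAX. The 12 points share 6 cultures and the IL-4 grouping, so r is given as a description. Mean Ap1b1 was 43.1 TPM in untreated WT, 91.8 TPM in WT after IL-4, 44.7 TPM in untreated KI and 59.3 TPM in KI after IL-4. Ap1b1 passed the IL-4 test (limma adjusted p = 0.0424) and Mxd4 did not (limma adjusted p = 0.138).

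Dusp1, the immediate early phosphatase that acts mainly on p38 and JNK, was the highest nuclear member. Its gene (ENSMUSG00000024190) spans chr17:26505590-26562128 on the minus strand (GRCm38). The WT cultures T13, T33 and T43 had 49.2, 31.6 and 33.02 TPM untreated and 32.2, 34.8 and 38.6 TPM after IL-4. The KI cultures T15, T22 and T32 had 39.5, 75.3 and 99.3 TPM untreated and 57.7, 137 and 52.2 TPM after IL-4. KI was above WT without overlap after IL-4 (12.7% of tested genes were), whereas untreated T15 fell within the WT range. The ratio of means, KI over WT, was 1.88 untreated and 2.34 after IL-4. The fitted IL-4 difference was 0.04 (SE 0.26), up in 4 of 6 cultures. The fitted KI minus WT difference was 0.95 (SE 0.26), which did not pass (limma adjusted p = 0.157). Over both treatments the 3 KI culture means lay above the 3 WT means, with p = 0.1 in an exact 2-sided permutation test, the smallest that 3 against 3 allows. The share of all tested genes with that order of culture means was not computed. For KI above WT in untreated libraries alone it was 13.6%. With the mural and fibroblast marker score as a covariate the difference was 1.02 (limma adjusted p = 0.880), and with the astrocyte score 1.19 (limma adjusted p = 0.180). Tested markers of both cell types also had fitted differences above 0 in KI, but astrocyte marker RNA and Dusp1 did not rank alike. Untreated T15 had the most astrocyte marker RNA (5009 TPM) and the lowest Dusp1 of the KI libraries (39.5 TPM). Mural and fibroblast marker sums were higher in KI without overlap, so a fit with that score cannot tell marker RNA and genotype apart. It left 1 gene of all those tested past the threshold for genotype. The astrocyte sums overlapped under both treatments, and while 0 of 10 tested astrocyte markers passed, all 10 had fitted KI minus WT differences above 0 (1.13 to 2.36). The median difference was 1.59 over these astrocyte markers and 1.39 over the 6 tested mural and fibroblast markers, against 0.13 over all tested genes. The part of other cells in the difference was not tested beyond these fits. Exons of Dusp1 overlap exons of Ergic1 on the opposite strand (62.4 to 133 TPM), and this unstranded kit cannot tell their reads apart there.

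Dusp5, a nuclear phosphatase specific for ERK, had no common direction. It was 2.71, 3.31 and 2.72 TPM in untreated T13, T33 and T43 and 2.48, 2.95 and 3.495 TPM in them after IL-4. In T15, T22 and T32 it was 0.20, 2.27 and 7.06 TPM untreated and 3.37, 16.6 and 0.50 TPM after IL-4. The WT libraries were thus tight and the KI libraries spread widely, up in T15 and T22 and down in T32. Its exons overlap those of an antisense gene, AC137853.2, which was not analysed here. Neither its genotype difference (0.00, SE 0.58, limma adjusted p = 0.963) nor its IL-4 difference (0.32, SE 0.58, limma adjusted p = 1.00) passed, and the latter was 0.0099 without T15, -0.13 without T22 and 1.08 without T32.

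The T22 IL-4 library held the highest level of 4 members among the 12 libraries, Dusp1, Dusp5, Dusp9 (0.94 TPM, next 0.79 TPM) and Dusp16 (3.66 TPM, next 3.54 TPM), and the highest Dusp6 among the 6 IL-4 libraries. Of all tested genes, 7.78% were highest there among the 12 libraries and 18.4% among the IL-4 libraries. Of the 16 listed immediate early genes, 9 were highest there among the IL-4 libraries, and in the other IL-4 libraries this held for 0 to 2 genes each. Among the 14 that were tested the count was 7, beside the 18.4% of all tested genes (10.3% to 34.6% in the other IL-4 libraries, with the most in T15). The 9 included Fos (218 TPM, against 31.0 to 72.8 TPM in the other IL-4 libraries), Egr1 (166 TPM, against 6.603 to 26.9 TPM) and Btg2 (41.4 TPM, against 16.96 to 20.9 TPM), 3 genes picked after their values were seen. The other 7, Atf3, Myc, Egr2, Junb, Zfp36, Fosl1 and Fosl2, were highest in another IL-4 library, such as Atf3 with 380 TPM in T33 against 299 TPM in T22. Without T22 the Dusp1 genotype difference was 0.68 (limma adjusted p = 0.260). What sets that library apart was not tested.

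**Figure D4:**
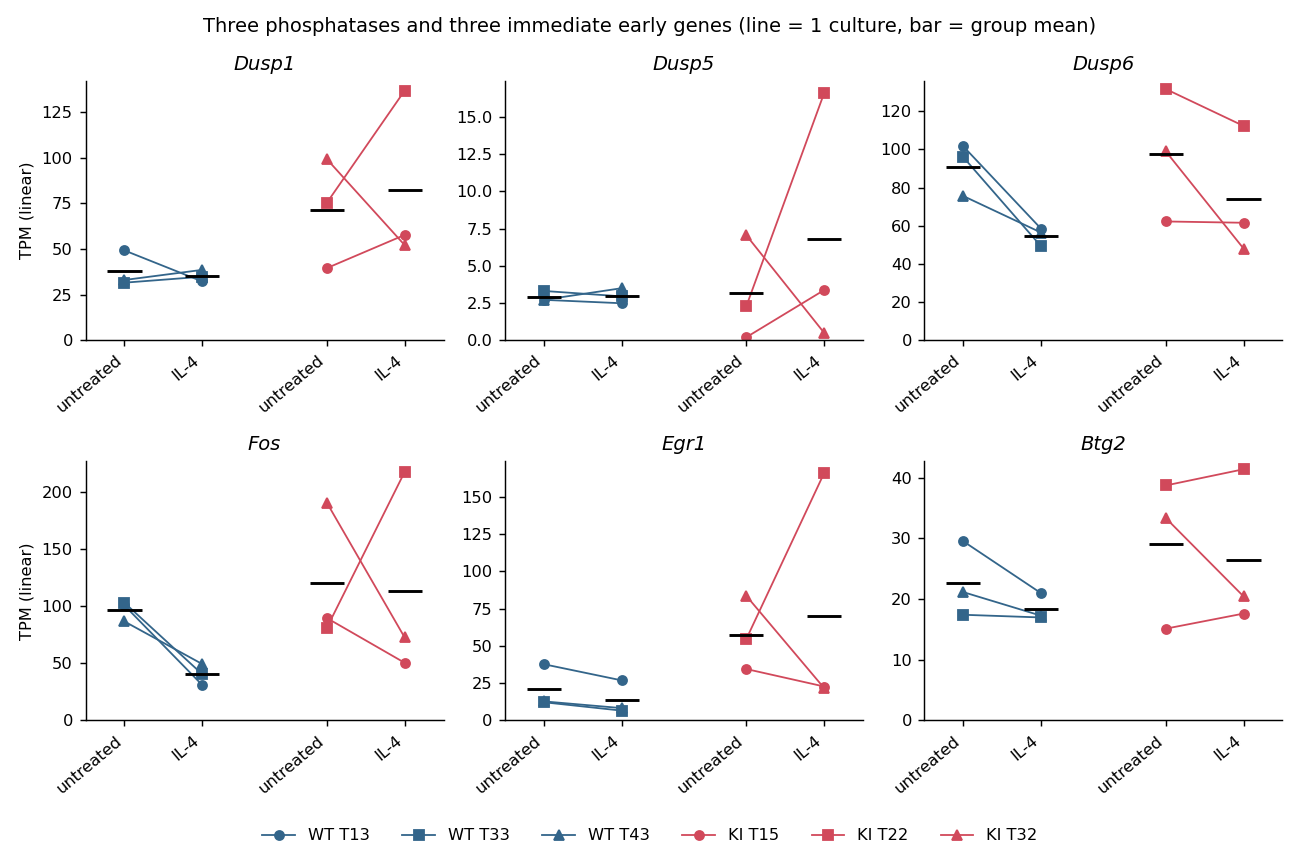
TPM (y axis, linear, a separate scale in each panel) of Dusp1, Dusp5 and Dusp6 above and of Fos, Egr1 and Btg2 below, with a line for each culture (WT blue, KI red) and a black bar at each group mean. Among the IL-4 libraries the red square of T22 is highest in all 6 panels.

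The stretches before the RefSeq starts of Dusp1, Dusp5 and Dusp8 are shown because they hold the rarer matches among those searched. RefSeq promoter windows (GRCm38.p6, 250 bases before and 50 after the gene start) matched 8 of the 10 members, all but Dusp4 and Dusp9. Both strands were searched. Capitals mark the cAMP response element TGACGTCA in Dusp1 and Dusp8 and the core of the serum response element in Dusp5. Bases that GENCODE annotates as exon are left off. The Dusp1 stretch is chr17:26508520-26508722 (minus strand), the Dusp5 stretch chr19:53528895-53529108 (plus strand) and the Dusp8 stretch chr7:142095285-142095534 (minus strand). Both the Dusp1 and the Dusp8 stretch lie within the annotated gene, intronic to longer transcripts that start further upstream.
Dusp1: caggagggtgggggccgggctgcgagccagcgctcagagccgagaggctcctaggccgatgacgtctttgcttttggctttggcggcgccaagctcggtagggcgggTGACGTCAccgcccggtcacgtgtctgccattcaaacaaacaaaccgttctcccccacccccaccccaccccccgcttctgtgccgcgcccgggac
Dusp5: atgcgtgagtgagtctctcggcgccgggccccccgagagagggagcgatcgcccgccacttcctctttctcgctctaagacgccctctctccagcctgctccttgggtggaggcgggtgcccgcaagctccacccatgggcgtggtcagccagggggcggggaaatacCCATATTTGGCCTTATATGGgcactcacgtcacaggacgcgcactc
Dusp8: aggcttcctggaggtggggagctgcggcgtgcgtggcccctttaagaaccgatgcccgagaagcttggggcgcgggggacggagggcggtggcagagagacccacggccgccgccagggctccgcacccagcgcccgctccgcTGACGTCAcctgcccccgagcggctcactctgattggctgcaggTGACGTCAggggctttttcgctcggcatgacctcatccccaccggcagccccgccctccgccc

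The full cAMP response element was present in 1.79% of 32851 windows and in 2 of the 8 members, at -143 to -136 of Dusp1 and at -107 to -100 and -63 to -56 of Dusp8. The serum response element core was present in 1.63% of windows and in 1 of 8 members, as 2 adjacent matches at -82 to -73 and -72 to -63 of Dusp5. The shorter TGACG, which the full element contains, was found in 20.8% of windows and in 5 of 8 members. For AP-1 (TGAGTCA, 5.2% of windows), STAT6 (TTCNNNNGAA, 6.95%), other STAT factors (TTCNNNGAA, 8.3%), EGR (GCGTGGG, 5.04%) and ETS (CCGGAAG, 8.86%), 0 of the 8 windows held these letters. Matches are letters in a window and not shown to be sites.

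Dusp2, a nuclear phosphatase known from haematopoietic cells, was seen almost only in WT. It was 6.11, 0 and 2.79 TPM in untreated T13, T33 and T43 and 3.82, 0 and 2.92 TPM after IL-4. In KI it was listed at 0 in 5 of 6 libraries and at 0.0533 TPM in untreated T32. Because T33 was also listed at 0 in both libraries, the genotypes overlapped, and the exact permutation test over cultures gave p = 0.4 (2-sided).

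Among the cytoplasmic members, Dusp6, the ERK phosphatase that ERK signalling itself induces, was lower with IL-4. Its gene (ENSMUSG00000019960) lies on the plus strand at chr10:99263231-99267489 (GRCm38). In WT it was 102, 95.9 and 75.6 TPM untreated and 58.4, 49.2 and 56.4 TPM after IL-4 in T13, T33 and T43. In KI it was 62.2, 132 and 99.0 TPM untreated and 61.5, 112 and 48.0 TPM after IL-4 in T15, T22 and T32. Every WT IL-4 library was below every untreated WT library, as for 4.93% of tested genes, while the KI libraries overlapped. Within cultures it was lower in 6 of 6 (2.51% of tested genes were), by 0.79, 0.95 and 0.42 log2 units in WT and by 0.016, 0.23 and 1.03 in KI, with T15 nearly level. The fitted difference was -0.57 (SE 0.22), which did not pass (limma adjusted p = 0.695, and 0.186 with the culture as a fixed replicate block). The exact sign-flip permutation test gave p = 0.03125 (2-sided, unadjusted, the smallest possible), as for Dusp4 and Dusp16 among the 10 members. Under median-ratio scaling Dusp6 kept p = 0.03125 in this exact test, while Dusp4 had 0.0625 and Dusp16 0.125.

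Dusp7, a cytoplasmic ERK phosphatase, was 23.7, 32.4 and 21.7 TPM in untreated WT and 38.7, 35.9 and 46.0 TPM in WT after IL-4. In KI it was 14.2, 29.9 and 32.5 TPM untreated and 52.0, 26.7 and 30.0 TPM after IL-4. The WT groups did not overlap (10.8% of tested genes had IL-4 above untreated in this way), but in KI only T15 was higher with IL-4. Its fitted IL-4 difference of 0.57 (SE 0.24) did not pass (limma adjusted p = 0.796), and without T15 it was 0.24 (range over the 6 omissions 0.24 to 0.73). KI and WT differed by -0.14 (SE 0.24). Dusp9, the other cytoplasmic member, stayed below 1 TPM in every library, at 0.57 to 0.79 TPM in untreated WT, and was listed at 0 in 6 libraries.

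Of the JNK and p38 phosphatases, all were low and all had higher group means in KI. Dusp10 was 0.99, 3.31 and 0 TPM in untreated T13, T33 and T43 and 1.54, 2.96 and 2.22 TPM after IL-4. In T15, T22 and T32 it was 3.48, 2.55 and 11.3 TPM untreated and 14.8, 7.55 and 4.45 TPM after IL-4. KI lay above WT without overlap after IL-4 only, as for 12.7% of tested genes. The ratio of means, KI over WT, was 4.02 untreated and 3.99 after IL-4. With 1 culture left out at a time the untreated ratio ranged from 2.10 (without T32) to 11.7 (without T33) and was 2.68 without T43, and the IL-4 ratio ranged from 2.68 (without T15) to 4.99. The fitted difference was 1.503 (SE 0.47), which did not pass (limma adjusted p = 0.213). Mean log2(TPM + 1) of Dusp10 over the WT libraries alone was under 1.5, so it passed the filter only through KI. Its genotype test is thus not independent of the filter. The mural and fibroblast score as a covariate left the difference at 1.28 (limma adjusted p = 0.999), with the limit given for Dusp1. IL-4 moved Dusp10 up in 4 of 6 cultures and down in T33 and T32.

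Dusp8 was 0.25, 0 and 1.21 TPM in untreated WT and 1.91, 0.022 and 0.93 TPM in WT after IL-4, in the order T13, T33 and T43. In T15, T22 and T32 it was 6.48, 1.95 and 3.37 TPM untreated and 3.84, 1.09 and 3.83 TPM after IL-4. The genotypes did not overlap when untreated (13.6% of tested genes had KI above WT in this way) and overlapped after IL-4. Dusp8 exons overlap those of Gm32786 on the opposite strand (0 to 3.81 TPM), so its reads cannot be told apart there either. The highest library, untreated T15, was also the one with the most astrocyte marker RNA, whose part in the Dusp8 level was not tested.

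Dusp16, which shuttles between nucleus and cytoplasm, was 1.11, 0.50 and 1.22 TPM in untreated WT and 2.02, 1.57 and 1.28 TPM in WT after IL-4. In KI it was 0.85, 3.54 and 1.46 TPM untreated and 2.19, 3.66 and 2.96 TPM after IL-4. As deposited it was higher with IL-4 in 6 of 6 cultures (5.73% of tested genes were), by 0.037 to 0.79 log2 units, but in only 4 of 6 under median-ratio scaling. After IL-4 it was higher in KI than in WT without overlap (12.7% of tested genes were). Its mean level is under the expression filter, and the read depth behind it is not known.

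**Figure D5:**
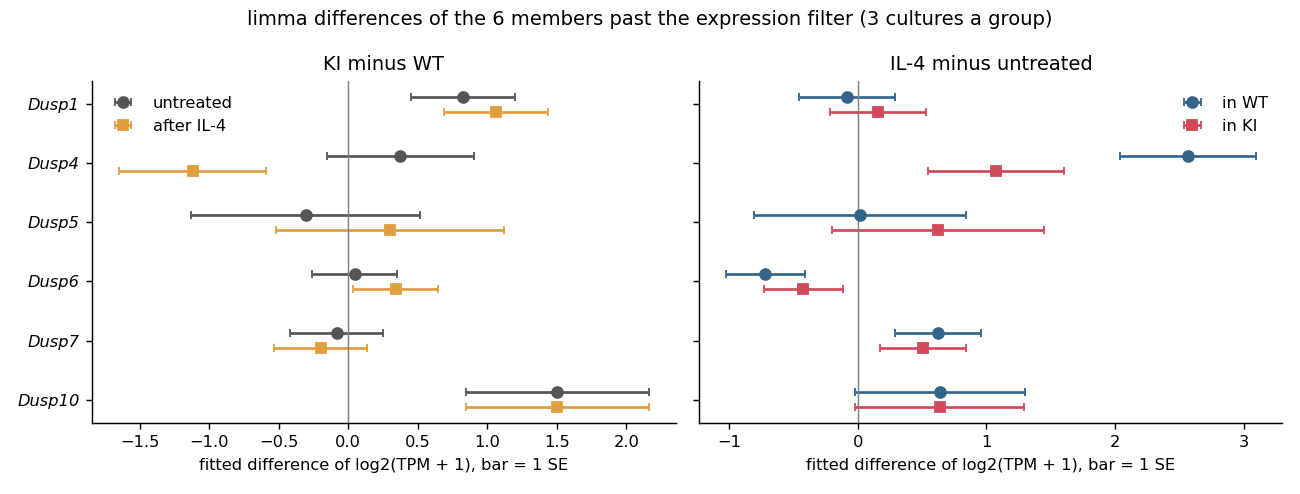
Fitted limma differences of log2(TPM + 1) (x axis) with 1 SE for the 6 tested members, KI minus WT on the left (untreated and after IL-4) and IL-4 minus untreated on the right (within WT and within KI). Dusp1 and Dusp10 lie above 0 in both genotype contrasts, and Dusp4 at 2.57 within WT is the largest IL-4 difference.

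No tested transcript of the kinases that these phosphatases act on, or of the kinases upstream, passed the threshold. Of 7 tested MAP kinases, 6 tested MAP kinase kinases and 11 tested MAP3 kinases, 0 passed for genotype, IL-4 or the interaction, with median IL-4 differences of -0.013, 0.023 and -0.11 (log2) against 0.043 over all tested genes. Over all tested genes 1.65%, 0.893% and 0% passed these tests, so 0 calls is close to that background. Median genotype differences were 0.20, 0.12 and -0.24 against 0.13 over all tested genes. Those of single MAP kinases ran from -0.21 to 1.95, so uncalled does not mean unchanged. Mapk14, the main p38 kinase, ranged from 29.7 to 64.1 TPM over the 12 libraries. The 9 tested atypical dual-specificity phosphatases and the 3 tested phosphatases of other classes that act on MAP kinases also had 0 calls.

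Among 9 tested feedback and output genes of ERK signalling, 1 rose in KI. Spry1, a Sprouty inhibitor of receptor tyrosine kinase signalling, was 1.40 to 7.24 TPM in WT and 7.91 to 36.1 TPM in KI, a difference of 2.17 (SE 0.40, limma adjusted p = 0.0367). Among 14 tested immediate early genes, Ier3 rose in KI by 1.45 (SE 0.26, limma adjusted p = 0.0298) and Egr2, a zinc finger transcription factor, rose with IL-4 by 2.75 (SE 0.24, limma adjusted p = 1.0e-04). Leaving out 1 culture at a time, Egr2 passed in 6 of 6 fits, Spry1 only without T13 (adjusted p = 0.0307 there and up to 0.206 elsewhere, limma) and Ier3 only without T13 or T15 (0.0222 to 0.190 over the 6 fits, limma). With the culture as a random replicate block Spry1 and Ier3 no longer passed (limma adjusted p = 0.0634 and 0.0513). That block changes the p-values and leaves the fitted differences as they were. With the mural and fibroblast score as a covariate neither passed (limma adjusted p = 0.488 and 0.899). That covariate left 1 gene past the threshold for genotype. The marker sums separate the genotypes, so this fit cannot tell marker RNA and genotype apart.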

How the data were processed

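Per the study's methods and the labels, poly(A)-primed SMART-Seq v4 cDNA was sequenced as paired ends, trimmed with Trim Galore and quantified with Salmon against Ensembl GRCm38, and the authors deposited TPM per gene for 12 libraries. TPM holds no depth, so no counting error could be given. Genes were named from an Ensembl symbol table (48350 of 48623 matched). Here TPM values were tested as log2(TPM + 1), mean above 1.5, with limma 3.58.1 (lmFit, eBayes with trend, R 4.3.3): F-tests of genotype and of IL-4, each with the interaction, and the interaction itself, at an adjusted p of 0.05, without a culture block. The fit was tested on simulated data. Single members were also tested by exact permutation over cultures, unadjusted. Replicates were separate cultures (3 per genotype), paired across treatment by the culture name in the sample names; same-culture residuals correlated at 0.0792 to 0.378. All 10 members, list genes past the threshold (at most 4 a list), check genes and the 3 best correlates of the member with the smallest p were to be named; some of these genes are not reported here. Members and lists were chosen with earlier results of these data known. Pseudocount, filter, scaling, trend, block and left-out cultures were varied, and the marker covariates, the fit without T13 and T15 and the random block for IL-4 were added after seeing the data.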

Additional observations from a re-analysis of the deposited data

How the results depend on the processing

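Averaged over cultures, Dusp4 with IL-4 kept its direction in every fit and crossed the threshold in 5 settings: quantile normalization (1.72), the random replicate block (1.82), the 1-coefficient test (1.82), the astrocyte covariate (1.77) and WT alone (2.57), where the number of members past it was 1 in place of 0. Leaving out 1 culture at a time, the Dusp4 difference ranged from 1.40 (without T22) to 2.06. The F-test, which also takes in the interaction, passed without T15 or T22 (adjusted p 0.0232 to 0.600 over the 6 fits, limma). The number of members past the threshold ranged from 0 to 1. Dusp4 was not tested with the filter at a mean of 3, which it missed. Under median-ratio scaling the exact permutation p over cultures went from 0.03125 to 0.0625 for Dusp4 and 0.125 for Dusp16. No member passed for genotype or interaction under any setting run.

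Genes past the threshold for genotype (185) were 16 with no filter, 26 with no variance trend, 77 with the random replicate block, 57 with the astrocyte and 1 with the mural and fibroblast covariate, 575 in the 1-coefficient test, 102 in untreated cultures alone, 2 in IL-4 cultures alone, and 3 to 192 with 1 culture left out. For IL-4 (100) they were 61 with no filter, 50 with no trend, 162 with the random and 240 with the fixed replicate block, 191 with the astrocyte covariate, 151 in the 1-coefficient test, 64 in WT alone, 45 in KI alone, and 46 to 144 with 1 culture left out. For the interaction (0), 4 passed with no filter and 1 without T13 and T15 together. The cause was not tested.

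Differences that changed sign were all of members that passed no test there. Dusp4 by genotype was 0.37 in untreated cultures. Dusp5 by genotype was 0.44 and 0.14 with the astrocyte and mural covariates and 0.30 in IL-4 cultures. Without T13 and T15 it was 0.32, and the interaction was -0.21 for Dusp1 and -0.072 for Dusp5. Dusp1 with IL-4 was -0.0041 under quantile normalization, -0.013 under median-ratio scaling (also culture by culture) and -0.080 in WT. Dusp8 within cultures was -0.023 under median-ratio scaling. With the mural covariate the interaction was 0.082 for Dusp7 and 0.28 for Dusp10. With 1 culture left out, genotype differences ranged from -0.48 to 0.39 for Dusp5 and from -0.10 to 0.38 for Dusp6, IL-4 differences from -0.14 to 0.31 for Dusp1 and from -0.13 to 1.08 for Dusp5, and interactions from -0.11 to 0.77 for Dusp1, from -0.30 to 2.13 for Dusp5, from -0.76 to 0.22 for Dusp7 and from -0.59 to 0.90 for Dusp10. Within cultures, IL-4 differences ranged from -0.12 to 0.23 for Dusp1, from -0.10 to 0.87 for Dusp5 and from -0.23 to 0.14 for Dusp8. As deposited, the median tested gene was 0.13 higher in KI.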
